A study of Mus musculus with 2 samples.

Results

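Hyaluronan is a long, unbranched sugar polymer of the extracellular matrix. It is spun out through the plasma membrane by the hyaluronan synthases, held in the matrix by binding proteins, bound on cells by surface receptors and cut down by hyaluronidases. In skin it fills the space between collagen fibres, and lymphatic vessels and macrophages are known to take up its fragments. The 9 genes of this system described here were chosen by name, out of 32285 genes in the count matrix. They were the synthases Has1, Has2 and Has3, the hyaluronidases Hyal1 and Hyal2 and the hyaluronan depolymerase Cemip, the receptors Cd44 and Lyve1, and Tnfaip6, which encodes the matrix protein TSG-6 that carries inter-alpha-trypsin inhibitor heavy chains onto hyaluronan and thereby cross-links it.

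The cells came from shaved dorsal skin of WT male mice, at 9 weeks of age (young) and at 108 weeks (old), with the skins of 2 mice pooled into 1 sample at each age. The skin was digested with enzymes, cells positive for F4/80 and high in MHC class II were sorted, and droplet libraries of 3′ transcript ends were sequenced. The submitters labelled the sorted cells as macrophages. The deposited matrix marked its 2 libraries by a barcode suffix that no label tied to an age, so they were treated as library 1 and library 2 of unknown age and the ages were not compared.

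Of 5257 barcodes, 3797 had 500 or more genes, 1000 or more unique molecular identifiers (UMIs) and a mitochondrial share of UMIs of 10% or less, with 2396 in library 1 and 1401 in library 2. Their median depth was 10761 UMIs in library 1 and 11196 in library 2, and 1 barcode sequence occurred in both libraries but none did among the kept cells. The cells formed 27 clusters, drawn without the hyaluronan genes and named "-like" from fixed marker lists. Phagocyte clusters held 53.7% of the cells, of which 895 cells in 5 clusters were macrophage-like and 1123 in 6 clusters carried phagocyte markers but no clear name. Fibroblast-like cells numbered 827 in 5 clusters, so the label of the sort covered only part of the cells that were sequenced. Endothelial-like cells numbered 350, of which 294 were blood endothelial-like and 56 lymphatic endothelial-like. Levels are UMIs of a gene per 1000000 UMIs of a class (CPM), with exact 95% Poisson intervals that cover counting error only. With 1 library per age there was no replicate test, and a difference was called only where it was at least 4-fold in the pooled cells and in each library.

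The sequences just upstream of 3 of these genes are shown. The genes were picked by their levels over the 27 clusters. Those of Has1 and Tnfaip6 went together (Pearson r of 0.94), while those of Has1 and Cd44 did not (-0.08). Scara3, which is not on the hyaluronan list, followed Has1 and Tnfaip6 more closely (0.96 with each). Shared control of these genes was not tested. The sequences come from RefSeq on build GRCm38.p6, written 5′ to 3′ on the strand of the gene. Each ends where the first annotated exon begins. Capitals mark matches to any of 4 short motifs that were searched on both strands. They were the TATA box written as TATAAA, the CCAAT box written as CCAAT, the GC box written as GGGCGG and the AP-1 motif written as TGANTCA, which reads alike on both strands.
Has1, chr17:17855206-17855438, minus strand: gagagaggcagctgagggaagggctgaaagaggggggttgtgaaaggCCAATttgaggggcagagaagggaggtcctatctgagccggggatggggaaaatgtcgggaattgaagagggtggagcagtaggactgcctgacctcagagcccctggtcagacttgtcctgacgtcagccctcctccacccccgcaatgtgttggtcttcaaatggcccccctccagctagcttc
Tnfaip6, chr2:52037863-52038008, plus strand: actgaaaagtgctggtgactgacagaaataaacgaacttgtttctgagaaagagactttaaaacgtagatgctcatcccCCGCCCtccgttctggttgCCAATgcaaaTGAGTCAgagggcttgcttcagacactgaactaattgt
Cd44, chr2:102901666-102901915, minus strand: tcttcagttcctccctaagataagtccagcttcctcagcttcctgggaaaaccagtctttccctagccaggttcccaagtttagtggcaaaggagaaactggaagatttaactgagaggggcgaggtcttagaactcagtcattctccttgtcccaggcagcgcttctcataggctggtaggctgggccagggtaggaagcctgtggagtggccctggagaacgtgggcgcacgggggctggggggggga
Distances are counted from the RefSeq start, which lies past the end of 2 of the printed stretches. Exon bases before that start were cut off, 17 for Has1 and 104 for Tnfaip6, so motifs lie that much nearer the printed end. The Has1 stretch of 233 bases held 1 match, CCAAT at 203 bases before the RefSeq start. Of 32851 promoter stretches of that length, 32.4% held CCAAT. The Tnfaip6 stretch of 146 bases held CCAAT at 152 bases before its start (19.4% of stretches), GGGCGG on the opposite strand at 171 bases (16.1%) and TGANTCA at 142 bases (3.86%). The Cd44 stretch of 250 bases held none of the 4, of which CCAAT was in 33.8% of stretches and GGGCGG in 32.7%. These are matches of letters in 3 windows and are not evidence of binding.

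In GENCODE vM21 on GRCm38, Has1 lies at chr17:17843323-17855205, Has2 at chr15:56665627-56694539, Has3 at chr8:106870242-106884566, Cemip at chr7:83932857-84086502, Lyve1 at chr7:110850607-110863239, Cd44 at chr2:102811141-102901665 and Tnfaip6 at chr2:52038009-52056686. Hyal2 (chr9:107567945-107572779) and Hyal1 (chr9:107576927-107581710) are neighbours. Hyal1 overlaps Hyal3 and Naa80 on its own strand, Hyal2 and Hyal1 each overlap an antisense gene, Has2 overlaps its antisense transcript Has2os, Has3 overlaps Chtf8 on the opposite strand, and Cd44 overlaps a small nuclear RNA gene on the opposite strand. No source used here gives the strand setting of the counting, so UMIs of these 5 genes could include some of the overlapping gene.

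Synthase transcripts were concentrated in the fibroblast-like cells. Has1 had 18965 of its 19394 UMIs there (97.8%) and Has2 had 919 of 1036 (88.7%), whereas Has3 was nearly undetected and had most of its few UMIs in keratinocyte-like cells. The matrix cross-linker Tnfaip6 lay in the same cells as Has1, with 39694 of 41008 UMIs (96.8%). Fibroblast-like cells made up 21.8% of the kept cells.

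The level of Has1 in fibroblast-like cells was 1405 CPM (interval 1385 to 1425), with 771 CPM in library 1 and 2139 CPM in library 2. In macrophage-like cells it was 4.07 CPM (41 UMIs), with 2.59 CPM in library 1 and 10.1 CPM in library 2. Has1 was called higher in fibroblast-like than in macrophage-like cells, as were 11.4% of the 12881 genes tested. The ratio was 346-fold, or 8.43 on the log2 scale (interval 7.99 to 8.91), with 8.22 in library 1 and 7.73 in library 2.

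Has2 is the synthase that mouse embryos need for heart development. Its level in fibroblast-like cells was 68.1 CPM, with 356 UMIs (49.2 CPM) in library 1 and 563 UMIs in library 2. Macrophage-like cells held 3 UMIs of Has2 (0.297 CPM), which gave a log2 ratio of 7.84 with a wide interval of 6.29 to 10.12. Has2 was called higher in fibroblast-like cells, by 7.64 in library 1 and 7.48 in library 2 on the log2 scale.

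Has3 had 32 UMIs in all kept cells. Keratinocyte-like cells held 17 of them in 7 cells (6.23 CPM), with 1.76 CPM in library 1 and 13.8 CPM in library 2. Fibroblast-like cells held 5 and macrophage-like cells 1, too few for the comparison, which needed 20 UMIs in both classes together.

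In fibroblast-like cells Tnfaip6 reached 2941 CPM, with 2544 CPM in library 1 and 3401 CPM in library 2. In macrophage-like cells it was 10.5 CPM, with 9.75 CPM in library 1 and 13.6 CPM in library 2. The 280-fold ratio (8.13 on the log2 scale, interval 7.85 to 8.42) was close to alike in the libraries, at 8.03 and 7.97. Among all genes tested in this comparison, 0.404% had a ratio at or above that of Has1, 0.644% at or above that of Tnfaip6 and 0.947% at or above that of Has2.

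Of the 8 members with enough UMIs, 3 were called higher in fibroblast-like than in macrophage-like cells (Has1, Has2 and Tnfaip6) and 3 lower (Hyal1, Hyal2 and Lyve1). Over all 12881 genes tested, 11.4% were called higher and 7.68% lower (19.1% in either direction), and the median log2 ratio was 0.27. Cd44 and Cemip were not called.

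**Figure D1:**
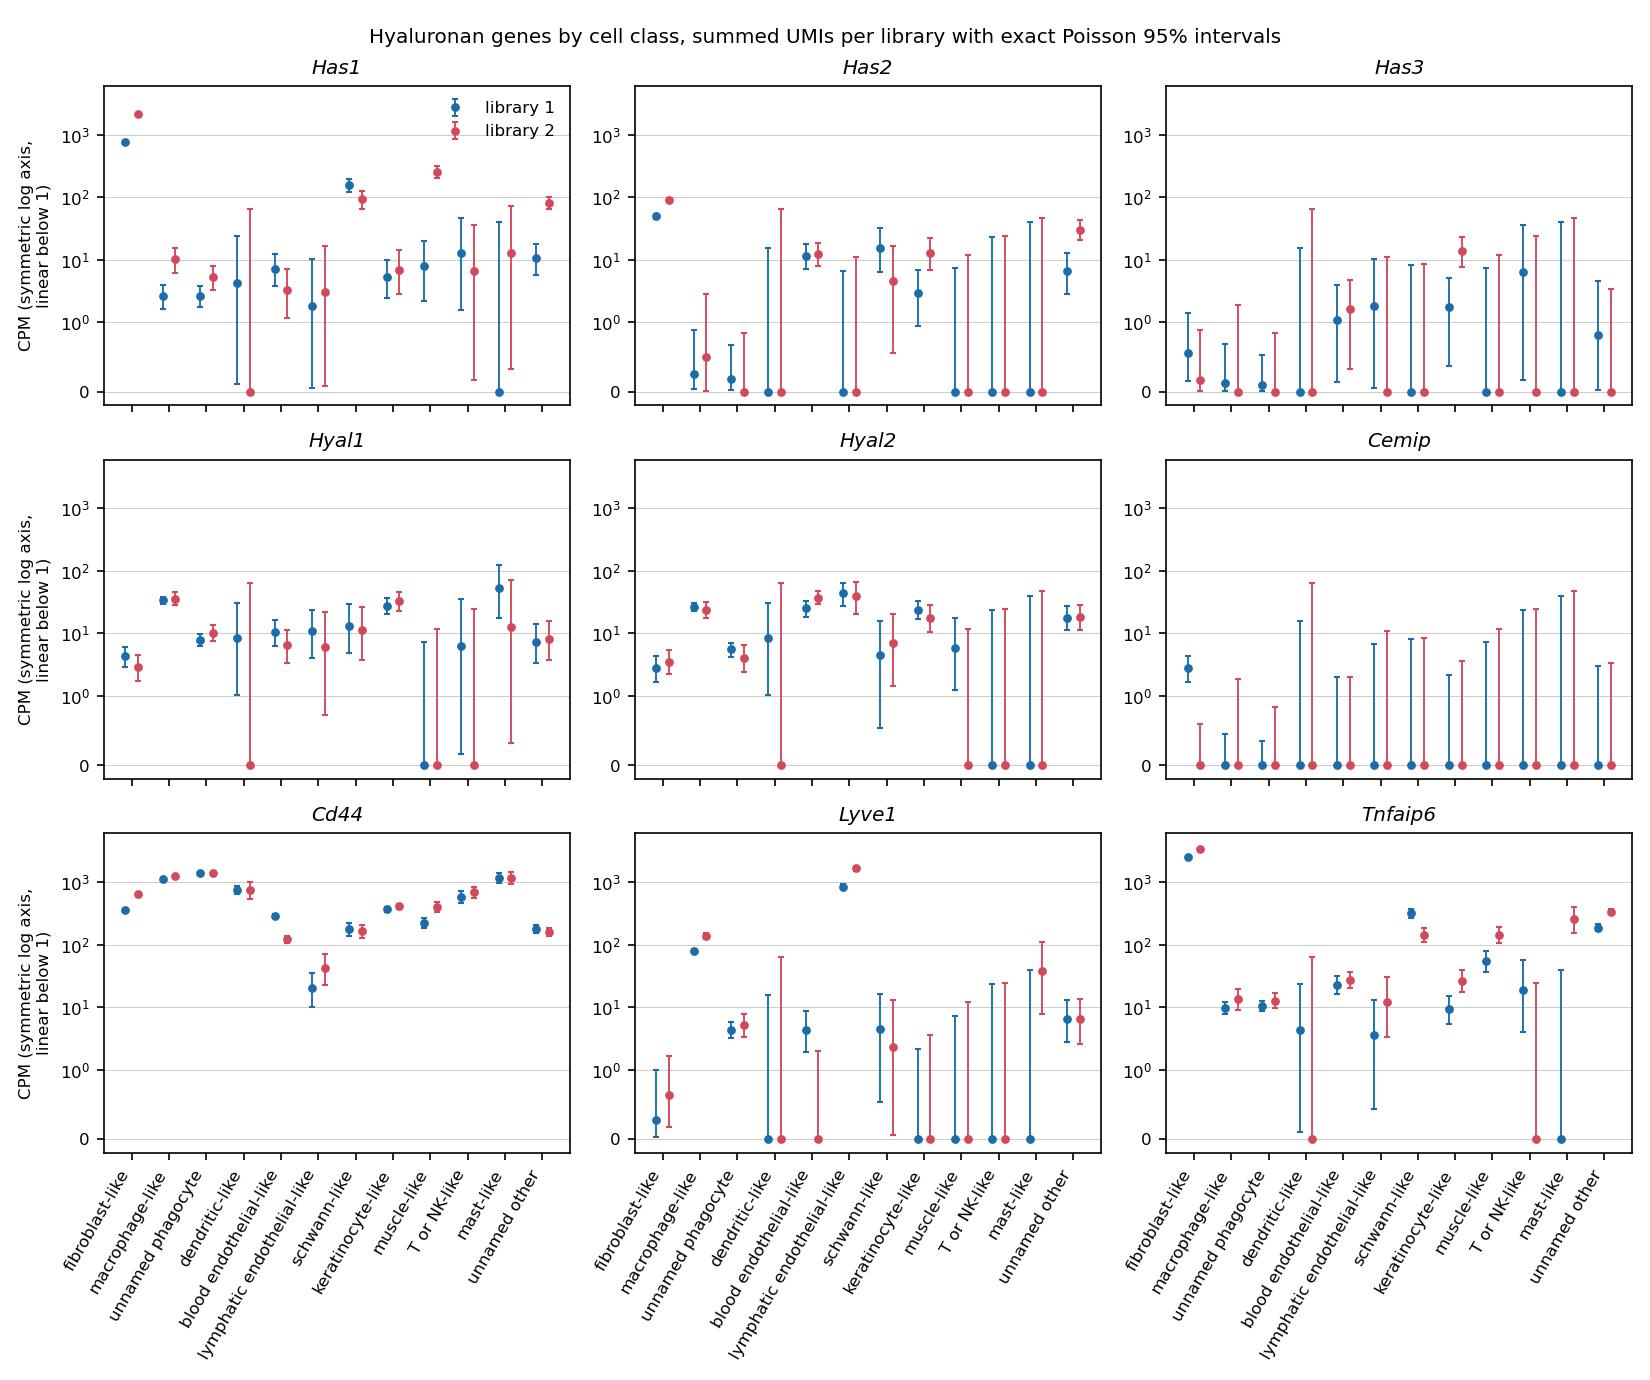
Level of each hyaluronan gene (CPM, symmetric log axis that is linear below 1) in each cell class, with a point for library 1 and a point for library 2 and exact Poisson 95% intervals as bars. Has1, Has2 and Tnfaip6 peak in fibroblast-like cells (1405, 68.1 and 2941 CPM over both libraries), Lyve1 in lymphatic endothelial-like cells (1148 CPM), and Cd44 is high in all phagocyte classes.

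Cells of other classes also held some UMIs of these genes, and some of those cells carried fibroblast markers. A cell was said to carry a list when at least 50% of the list's markers were detected in it. In Schwann-like cells Has1 was at 124 CPM, and 104 of its 110 UMIs lay in the 25 cells that carried the fibroblast list, which leaves 10.5 CPM in the other 101 cells. In the unnamed cluster led by Gm13889, with mural, blood endothelial and haemoglobin genes, Has1 was at 43.9 CPM, and 68 of 102 UMIs lay in 11 cells that carried the fibroblast list. A muscle-like cluster led by Erfe, Gal and Asb5 differed from these, since 81 UMIs of Has1 lay in 20 of its 52 cells and only 2 of them in cells that carried the fibroblast list. Over the muscle-like class Has1 was at 7.90 CPM in library 1 and 254 CPM in library 2, so its place in the order of classes rested on library 2. In macrophage-like cells the 50 cells that carried the fibroblast list held none of the 41 Has1 UMIs, and the summed fibroblast list stood at 0.524% of its level in fibroblast-like cells while Has1 stood at 0.289%. The part of free RNA in these low levels was not tested.

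With each cell thinned to 2000 UMIs to even out depth, Has1 was detected in 420 of 780 fibroblast-like cells (53.8%, exact binomial interval 50.3 to 57.4), with 44.0% in library 1 and 60.3% in library 2. The share in macrophage-like cells was 0.577% (5 of 866), and 0 of 73 keratinocyte-like cells had a UMI, which at this depth allows a share of cells with a UMI of up to 4.11%. Without thinning, 13 of 77 keratinocyte-like cells (16.9%) had a UMI of Has1. Tnfaip6 was detected in 75.0% of fibroblast-like and 2.31% of macrophage-like cells, and Has2 in 12.6% and 0.115%. Median depth before thinning was 13097 UMIs in fibroblast-like and 10016 in macrophage-like cells.

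The UMIs of Has1 were unevenly spread among fibroblast-like cells. The median cell had 6 UMIs, the highest had 234, and the 83 cells with the most UMIs, of 827, held 49.4% of them. Tnfaip6 had a median of 20 UMIs per cell and a highest value of 641. After thinning, Tnfaip6 was detected in 88.3% of the cells with Has1 (371 of 420, interval 84.9 to 91.2) and in 59.4% of those without (interval 54.2 to 64.6). Cd44 was likewise detected in 54.8% of cells with Has1 (230 of 420) and in 108 of 360 cells without, and Has2 in 17.9% and 6.39%. The order was alike in each library for all 3 genes, and cells of 1 library are not replicates.

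Among the fibroblast-like clusters the synthases ranged more widely than Tnfaip6 did. Has1 and Has2 were highest in a cluster led by Smpd3, Sfrp2 and Pi16 and in a cluster led by Myoc, Ptx3 and Cxcl5, whereas the cluster led by Prlr, Slc26a7 and Pappa2 kept Has1 and nearly lacked Has2.

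Has1 was at 3379 CPM in the Smpd3 cluster and 3315 CPM in the Myoc cluster over both libraries, and it was higher in the Smpd3 cluster within library 1 (2679 and 1577 CPM) and within library 2 (4952 and 3721 CPM). It was at 688 CPM in the cluster led by Igfbp2 and Ctla2a, 639 CPM in the Prlr cluster and 526 CPM in the cluster led by Col1a1 and Col1a2. Has2 was at 386 CPM in the Smpd3 cluster, 140 CPM in the Myoc cluster, 62.6 CPM in the Col1a1 cluster and 28.5 CPM in the Igfbp2 cluster. In the Prlr cluster Has2 had 8 UMIs in 110 cells (2.37 CPM), although Has1 had 2158 UMIs there. This cluster was also set apart by its markers, since 8 of the 10 fibroblast markers were raised in it and their summed level was 4.38% of that of the class.

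Over both libraries Tnfaip6 ranged from 2298 CPM in the Col1a1 cluster to 3839 CPM in the Smpd3 cluster. Its order differed within the libraries, from 1405 CPM in the Igfbp2 cluster to 3741 CPM in the Myoc cluster in library 1, and from 1658 CPM in the Prlr cluster to 6785 CPM in the Smpd3 cluster in library 2. Cd44 over both libraries ranged from 239 CPM in the Col1a1 cluster to 674 CPM in the Igfbp2 cluster. Ptx3, which encodes pentraxin 3 and works with TSG-6 in organizing hyaluronan matrix, had a pattern like that of Has1 with a wider range, at 1981 CPM in the Smpd3 cluster, 1926 CPM in the Myoc cluster and 7.11 CPM in the Prlr cluster. The large proteoglycan versican, from Vcan, ranged from 75.2 CPM in the Prlr cluster to 331 CPM in the Smpd3 cluster.

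**Figure D2:**
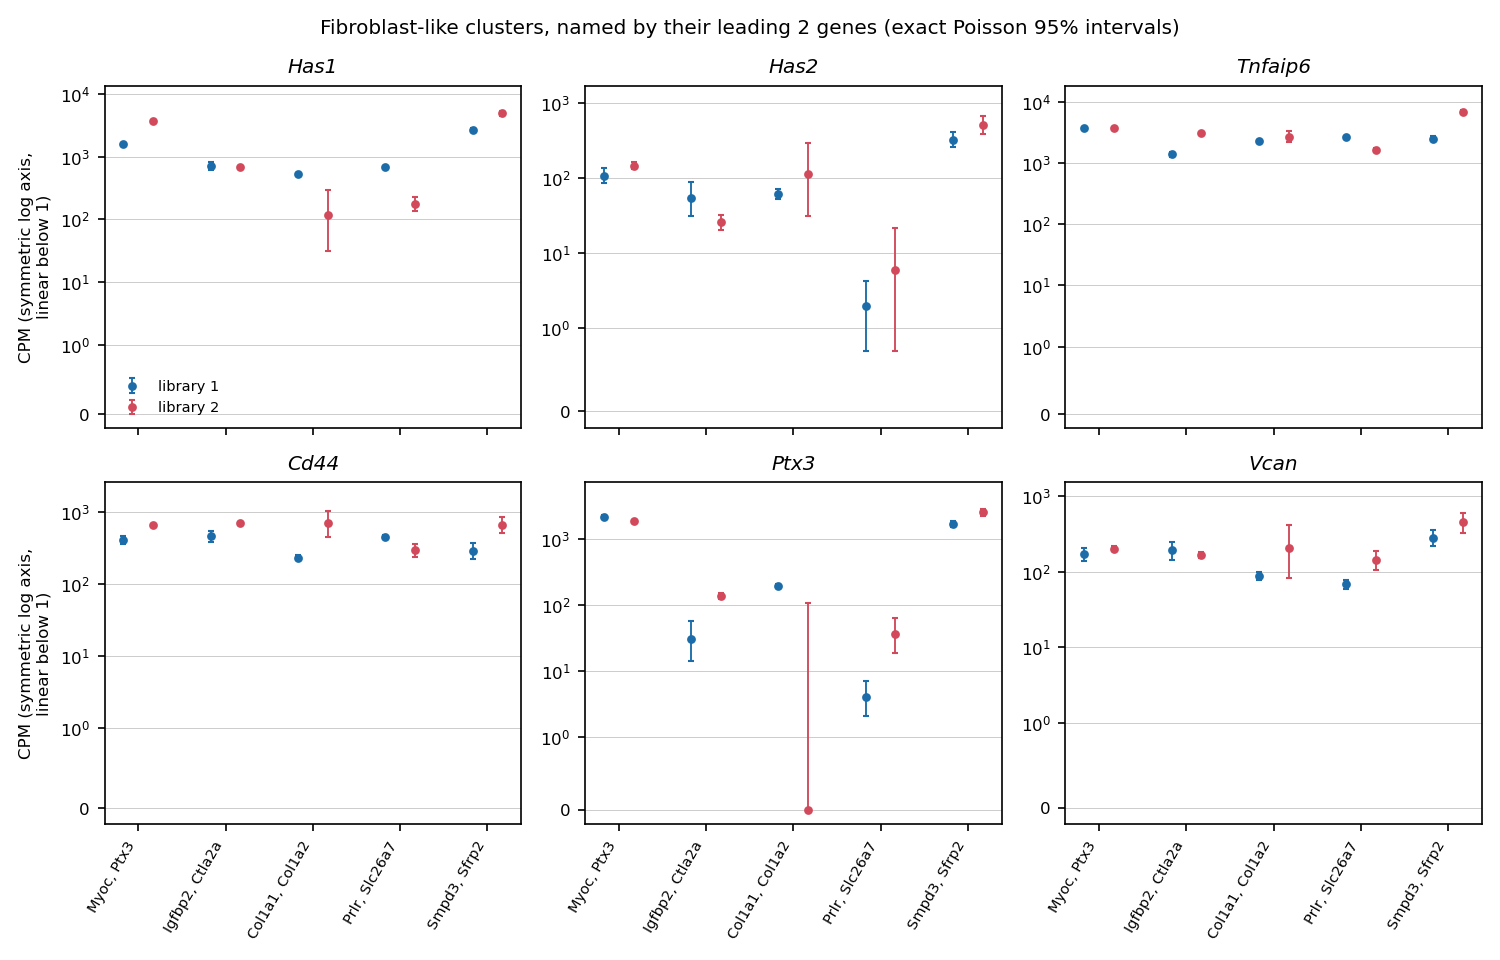
Levels of 4 of the hyaluronan genes and of Ptx3 and Vcan (CPM, symmetric log axis that is linear below 1) in the 5 fibroblast-like clusters, with a point for each library and exact Poisson 95% intervals. Has1 and Ptx3 stand highest in the clusters led by Myoc and Smpd3, Has2 is lowest in the Prlr cluster (2.37 CPM over both libraries), and the library 2 points of the Col1a1 cluster come from 1 cell.

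The libraries differed in how many cells each fibroblast-like cluster took from them. The Myoc cluster had 62 cells in library 1 and 290 in library 2, the Igfbp2 cluster 24 and 176, the Col1a1 cluster 137 and 1, the Prlr cluster 78 and 32, and the Smpd3 cluster 18 and 9. Over the whole class Has1 was 2.78-fold higher in library 2 (log2 ratio 1.47, interval 1.43 to 1.52). Within clusters this was not uniform. In the Myoc cluster Has1 went from 1577 CPM in library 1 to 3721 CPM in library 2 (log2 ratio 1.24, interval 1.15 to 1.33). In the Igfbp2 cluster it was 716 CPM and 685 CPM (log2 ratio -0.06, interval -0.27 to 0.15), and in the Prlr cluster it was 690 CPM and 177 CPM (log2 ratio -1.97, interval -2.36 to -1.59). The direction therefore depended on the cluster. For Tnfaip6 the log2 ratio of library 2 over library 1 was 0.02 in the Myoc cluster, 1.14 in the Igfbp2 cluster and -0.67 in the Prlr cluster.

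Each library was a single sample, so no test of a difference between them was possible. Genes at least 2-fold apart, with an interval for counting error that left out a ratio of 1, were counted only to describe these libraries. In fibroblast-like cells 1 of 7 members was past 2-fold towards library 2 (Has1) and 1 towards library 1 (Cemip), beside 6.18% and 10.2% of 11765 genes tested (16.4% in all). Without the Col1a1 cluster, which came almost wholly from library 1, 1892 genes were past 2-fold towards library 1 in place of 1197. Has2 (log2 ratio 0.87), Cd44 (0.90) and Tnfaip6 (0.42) stayed below that fold. In macrophage-like cells Has1 alone of 6 members was past 2-fold, with 21 UMIs (2.59 CPM) in library 1 and 20 UMIs (10.1 CPM) in library 2, beside 1.74% of 9971 genes towards library 2 and 2.1% towards library 1 (3.83% in all). Over all kept cells Has1 was at 175 CPM in library 1 and 758 CPM in library 2, and the part of free RNA in the macrophage-like values was not tested. In endothelial-like cells Cd44 alone of 7 was past 2-fold, at 226 CPM in library 1 and 110 CPM in library 2, beside 4.61% of 9878 genes towards library 1 and 1.68% towards library 2 (6.29% in all). The summed macrophage list in these cells was at 947 CPM in library 1 and 298 CPM in library 2, and its part in the Cd44 values was not tested. Age, animals and handling differed together between the libraries and cannot be told apart.

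Both hyaluronidases among the members were low in the cells that held the synthases. Hyal1, a lysosomal hyaluronidase, and Hyal2, a hyaluronidase anchored at the cell surface that cuts long chains into shorter pieces, were both lower in fibroblast-like than in macrophage-like cells, and Hyal2 was also found in endothelium. Their counts were small, at 679 UMIs of Hyal1 and 644 of Hyal2 in all kept cells.

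The level of Hyal1 in macrophage-like cells was 34.1 CPM, with 33.7 CPM in library 1 and 35.8 CPM in library 2. In fibroblast-like cells it was 3.63 CPM, with 4.28 CPM and 2.88 CPM in the libraries, which is 9.40-fold lower (log2 ratio -3.23, interval -3.69 to -2.80). Mast-like cells (34.9 CPM from 6 UMIs) and keratinocyte-like cells (29.7 CPM) had intervals that overlapped that of macrophage-like cells. The 1123 unnamed phagocytes had a lower level of 8.48 CPM, with 7.77 CPM in library 1 and 10.2 CPM in library 2. Endothelial-like cells had 8.48 CPM, a log2 ratio of -2.01 to macrophage-like cells that was past 4-fold in library 2 (-2.49) but not in library 1 (-1.69) and so was not called.

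Hyal2 was at 41.8 CPM in lymphatic endothelial-like, 31.3 CPM in blood endothelial-like and 25.9 CPM in macrophage-like cells, and neighbours in this order had overlapping intervals. In fibroblast-like cells it was 3.11 CPM, with 2.76 CPM in library 1 and 3.52 CPM in library 2. The unnamed phagocytes had 5.10 CPM, with 5.52 CPM in library 1 and 4.08 CPM in library 2. The log2 ratio of fibroblast-like over macrophage-like cells was -3.06 (interval -3.56 to -2.58), or 8.32-fold lower. Endothelial-like over macrophage-like cells gave 0.36 (interval 0.07 to 0.66), well under 4-fold.

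Over both libraries, the hyaluronidases followed the same order in the macrophage-like clusters. Hyal1 was at 67.1 CPM in the cluster led by Cd209f, Cd209g and Ccl8, 44.9 CPM in the cluster led by Pf4 and Cbr2, 38.9 CPM in the cluster led by Ly6c2 and Lgmn, 11.6 CPM in the small cluster led by Ccl3 and Ccl4, and 1.81 CPM in the cluster led by Retnla, Lyz1 and Dcstamp. Hyal2 was at 49.5, 38.1, 27.8, 5.78 and 1.20 CPM in these clusters. The order was the same in library 1, where Hyal2 was at 55.5 CPM in the Cd209f cluster and 35.7 CPM in the Pf4 cluster. In library 2 these clusters stood in the reverse order for Hyal2, at 27.4 CPM (15 UMIs) and 46.4 CPM (22 UMIs), while Hyal1 was at 60.4 and 50.6 CPM. The Retnla cluster thus held 6 UMIs of Hyal1 and 4 of Hyal2 in 213 cells, at a median of 15134 UMIs per cell.

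Cemip, a depolymerase known from fibroblasts, had 20 UMIs, all in fibroblast-like cells of library 1. Of these 18 lay in the Prlr cluster and 2 in the Igfbp2 cluster, and 1 cell held 7. Macrophage-like cells had no UMI of Cemip. With 3 counts taken as the limit that a count of 0 allows over that class, the level in fibroblast-like cells was 4.98-fold higher. The exact interval of the log2 ratio, from counts of 20 and 0, began at 1.88. Library 2 had no UMI in either class, and the difference was not called.

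The transcripts of both receptors had their highest levels in other classes than those of Has1 and Has2. Cd44, the main adhesion receptor for hyaluronan, was present in nearly all classes and highest in phagocytes, which held 77.3% of its 42588 UMIs, while fibroblast-like cells held 15.6%. Lyve1 is a related receptor known from lymphatic endothelium and from macrophages around vessels. Its 2030 UMIs were split almost evenly between lymphatic endothelial-like cells (50.1%) and macrophage-like cells (44.8%). Of the kept cells, 53.7% were phagocytes (23.6% macrophage-like), 21.8% fibroblast-like and 1.47% lymphatic endothelial-like. Shares of UMIs depend on this mix of sorted cells as well as on the level in each class.

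Cd44 was at 1401 CPM in the unnamed phagocytes (1400 CPM in library 1 and 1404 CPM in library 2) and 1147 CPM in macrophage-like cells (1127 and 1230 CPM in the libraries). Its level in fibroblast-like cells was 493 CPM, with 352 CPM in library 1 and 655 CPM in library 2. That is 2.33-fold below macrophage-like cells (log2 ratio -1.22, interval -1.26 to -1.18), in the same direction in both libraries (-1.68 and -0.91) and below the 4-fold needed for a call. After thinning, 76.2% of macrophage-like (interval 73.2 to 79.0) and 43.3% of fibroblast-like cells (interval 39.8 to 46.9) had a UMI of Cd44. Mast-like cells had 1170 CPM from 201 UMIs, with an interval that overlapped that of macrophage-like cells, and dendritic-like cells had 741 CPM. Lymphatic endothelial-like cells had 28.2 CPM, the lowest of all classes.

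In blood endothelial-like cells Cd44 was at 204 CPM, but much of this lay in cells that carried a list of another type. In the cluster led by Gpihbp1, 527 of 680 UMIs lay in 23 cells that carried the macrophage list, and without them the level was 73.1 CPM in place of 255 CPM. In the cluster led by Selp and Sele, 71 of 78 UMIs lay in 18 cells that carried the mural list. Over all endothelial-like cells Cd44 was 6.73-fold below macrophage-like cells (log2 ratio -2.75, interval -2.86 to -2.65, and -2.32 and -3.48 in the libraries). Without the cells that carried 2 lists it fell to 40.2 CPM, and the log2 ratio was -4.86. Cd44 was called lower either way.

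Cd44 varied less than 4-fold among the phagocyte clusters. Over both libraries it was highest at 1962 CPM in the unnamed cluster led by Mmp12 and Klrb1b and lowest at 592 CPM in the Ccl3 cluster. In the macrophage-like clusters it was 1472 CPM in the Retnla cluster, 1263 CPM in the Pf4 cluster, 1082 CPM in the Ly6c2 cluster and 750 CPM in the Cd209f cluster.

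Lyve1 was at 1148 CPM in lymphatic endothelial-like cells (interval 1078 to 1220), with 843 CPM in library 1 and 1652 CPM in library 2. It was not evenly spread over these 56 cells, since 31 had a UMI, the highest cell had 208 and the 6 highest cells held 71.1% of the UMIs. In macrophage-like cells it was 90.1 CPM, with 78.6 CPM in library 1 and 137 CPM in library 2. In the unnamed phagocytes it was only 4.57 CPM, with 4.31 CPM in library 1 and 5.22 CPM in library 2. Fibroblast-like cells held 6 UMIs (0.444 CPM), a log2 ratio to macrophage-like cells of -7.66 (interval -9.11 to -6.54), and these lay in 6 of 827 cells (0.726%). After thinning 0 of 780 had a UMI, which at that depth allows a share of cells with a UMI of up to 0.385%. Blood endothelial-like cells had 8 UMIs, and all 8 lay in cells that carried the macrophage list.

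Lyve1 marked some macrophage-like clusters and not others. The Cd209f cluster had 233 CPM, with 211 CPM in library 1 and 313 CPM in library 2. The Pf4 cluster had 80.1 CPM, with 62.0 CPM and 141 CPM in the libraries, and the Ly6c2 cluster 79.6 CPM. The Ccl3 cluster had 17.3 CPM from 6 UMIs, and the Retnla cluster had no UMI of Lyve1 among 213 cells and 3323010 UMIs, which allows up to 0.903 CPM. Stab1, which encodes the scavenger receptor stabilin-1, was also lowest in the Retnla cluster, at 3.31 CPM against 177 to 271 CPM in the other macrophage-like clusters. Of the unnamed phagocyte clusters, the cluster led by Igkc and Cd79a had no UMI of Lyve1 and the Mmp12 cluster had 5. The most was 33 UMIs, in the cluster led by Cfd and Mucl1.

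**Figure D3:**
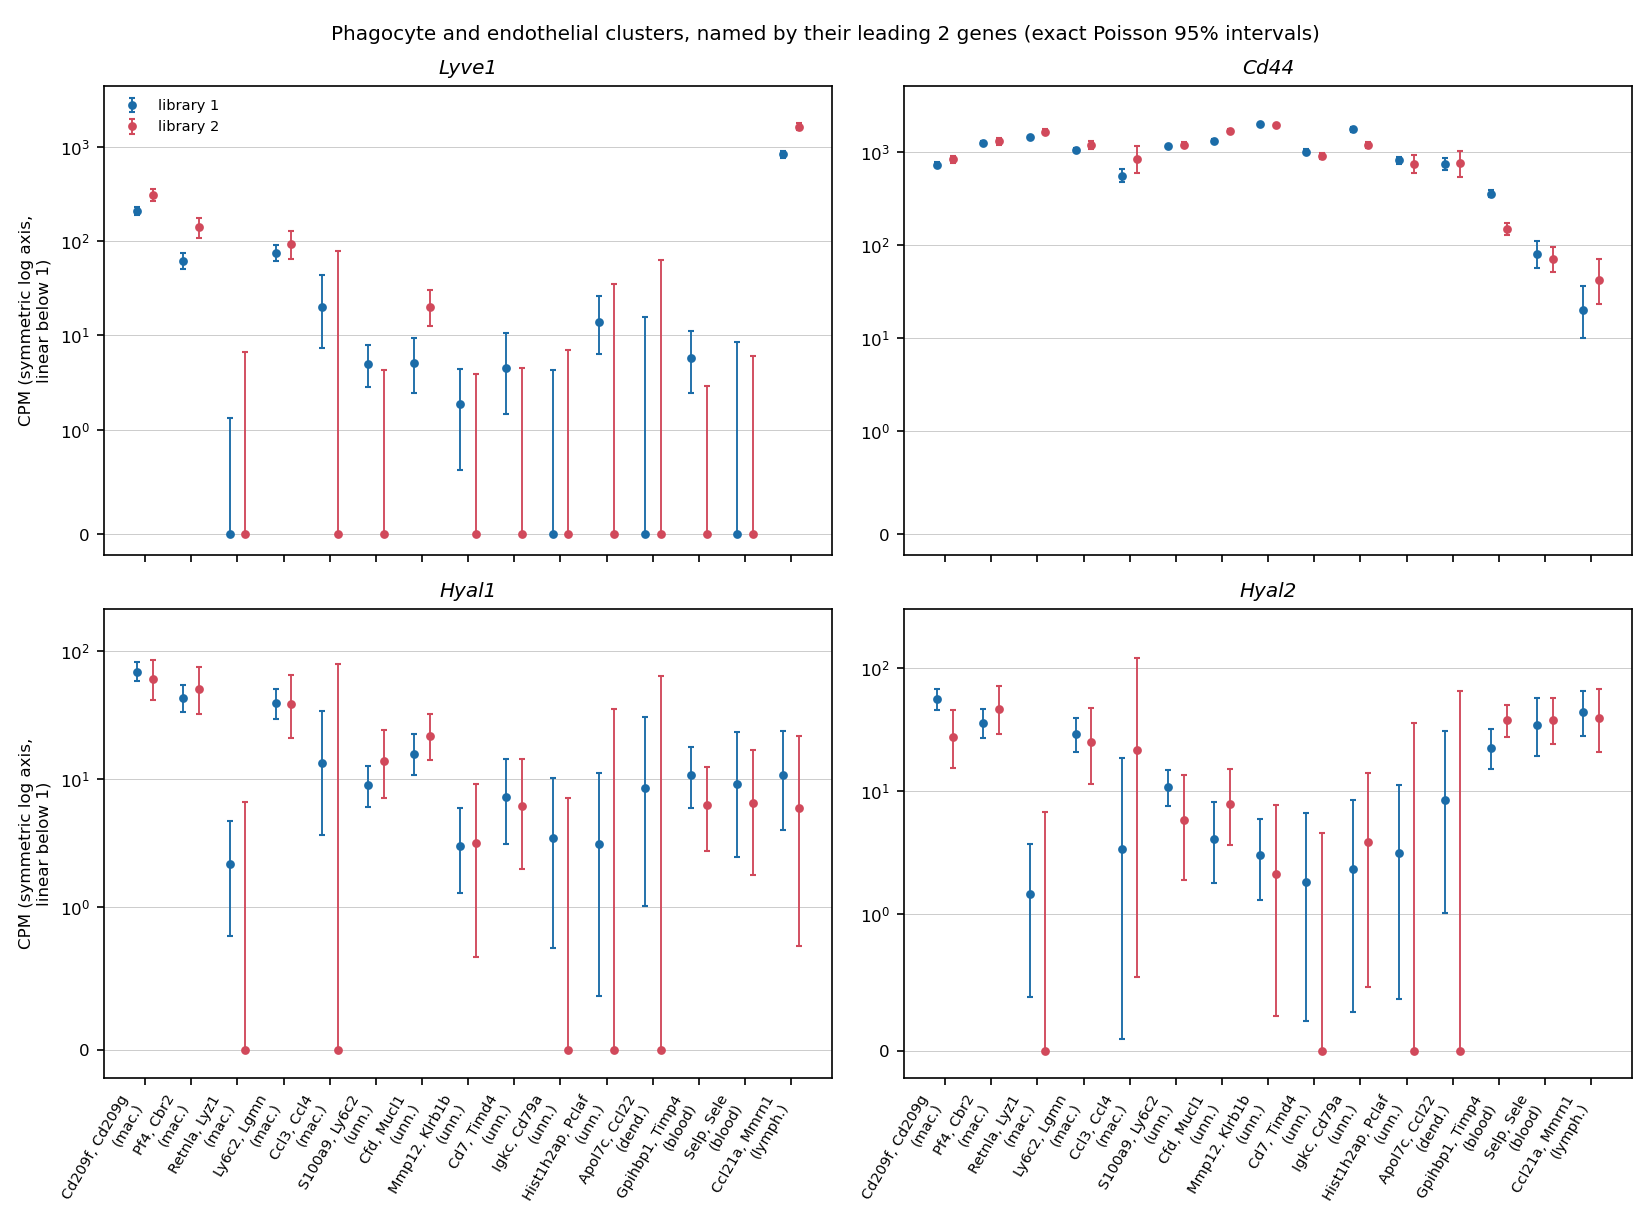
Levels of Lyve1, Cd44, Hyal1 and Hyal2 (CPM, symmetric log axis that is linear below 1) in the phagocyte and endothelial clusters, with a point for each library and exact Poisson 95% intervals. In brackets, mac. is macrophage-like, unn. is unnamed phagocyte, dend. is dendritic-like, and blood and lymph. are the endothelial-like classes. Lyve1, Hyal1 and Hyal2 are all high in the Cd209f cluster and near 0 in the Retnla cluster, where Cd44 is at 1472 CPM.

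After thinning, 130 of 866 macrophage-like cells had a UMI of Lyve1 (95% interval of the share 12.7% to 17.6%) and 40.4% of lymphatic endothelial-like cells did (interval 27.0 to 54.9). Cd44 was detected in 63.1% of the macrophage-like cells with Lyve1 and 78.5% of those without. This order held in library 1 (60.2% and 79.2%) and not in library 2 (77.3% of 22 cells and 75.4%).

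In endothelial-like against macrophage-like cells, 1 of 7 members tested was called higher (Has2) and 1 lower (Cd44), where 12.1% and 5.98% of 11752 genes tested were called (18.1% in all). Lyve1, pooled over blood and lymphatic cells, was 2.47-fold higher (log2 ratio 1.31, interval 1.18 to 1.44) and not called. Has2 was at 9.57 CPM against 0.297 CPM, a log2 ratio of 5.01 (interval 3.37 to 7.34). Of its 44 endothelial UMIs, 43 lay in 10 cells of the Selp cluster, and 42 of these 43 in cells that carried the mural list. Only 1 UMI of Has2 remained in 279 endothelial-like cells that carried no list of a second type, so the higher level rested on the cells that carried 2 lists. The part of mixed droplets in it was not tested. Tnfaip6 (log2 ratio 1.04) and Has1 (0.17) were not called, and 55 of 58 Tnfaip6 UMIs of the Selp cluster lay in cells that carried the mural list.

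**Figure D4:**
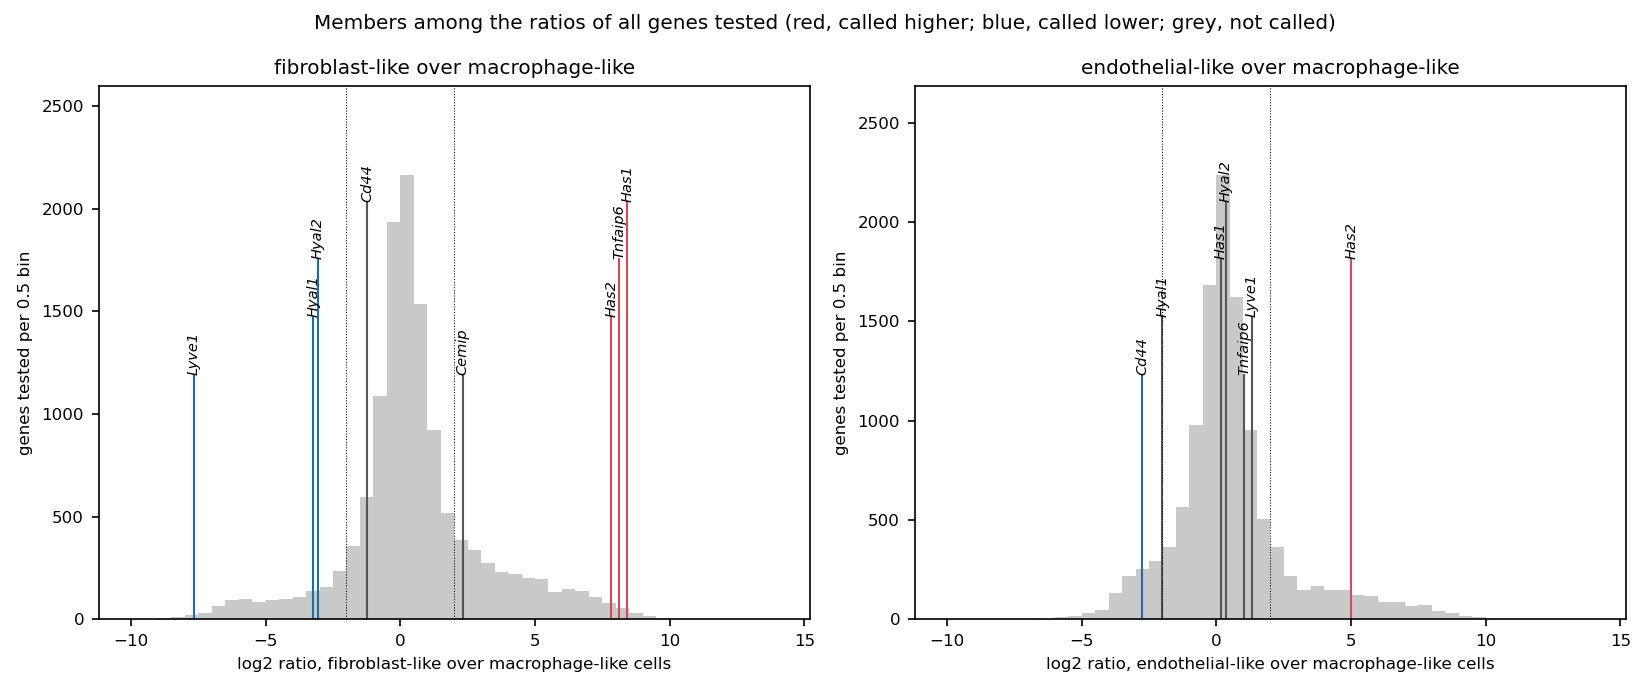
Log2 ratios of the hyaluronan genes in fibroblast-like over macrophage-like cells and in endothelial-like over macrophage-like cells, beside the distribution of all genes tested. Has1, Tnfaip6 and Has2 stand at 8.43, 8.13 and 7.84 in the first comparison and Lyve1 at -7.66, against a median of 0.27 over all genes.

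Other genes of the hyaluronan system, 36 beside the 9 members, were read from a fixed list. Of the 20 with enough UMIs in fibroblast-like and macrophage-like cells together, 8 were called higher in fibroblast-like cells, 3 lower and 9 neither. Over all genes tested in this comparison, 11.4% were called higher and 7.68% lower. All 7 precursor enzymes were tested, and 4 were called higher in fibroblast-like cells and none lower, with a median log2 ratio of 2.48, beside 11.4% called higher over all genes and a median of 0.27. Ugdh, which makes the UDP-glucuronic acid used by the synthases, was at 983 CPM against 33.5 CPM (log2 ratio 4.87), and Gfpt2, which feeds the hexosamine pathway, at 524 CPM against 2.08 CPM (7.98). Uap1 (2.89) and Pgm3 (2.48), which act further along the hexosamine pathway, were also called higher. Gfpt1, another of the precursor enzymes, was at 100 CPM in fibroblast-like and 164 CPM in macrophage-like cells (-0.71) and was not called. Ugdh was at 640 CPM in library 1 and 1379 CPM in library 2, and Uap1 at 555 CPM and 921 CPM.

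The counts for the other roles include the members, and stand beside the same 11.4% called higher and 7.68% called lower over all genes. Of the matrix binders and cross-linkers, 6 of 16 were tested and 4 were called higher, with a median log2 ratio of 5.68. They were Tnfaip6, Ptx3 (8.95), Itih5 (6.56), which encodes an inter-alpha-trypsin inhibitor heavy chain, and Vcan (3.68). Of the receptors, 6 of 8 were tested, with Layn (3.92), the hyaluronan receptor layilin, called higher and Lyve1, Stab1 (-5.80) and Tlr2 (-3.00) called lower. Of the hyaluronidases and related enzymes, 7 of 11 were tested and 3 were called lower, Hyal1, Hyal2 and Hyal3 (-2.67), whose reads could overlap those of Hyal1. The lysosomal enzymes Hexa and Gusb were not called in this comparison. The highest levels that follow are among the named classes, so the unnamed phagocytes and the unnamed cluster led by Gm13889 were not ranked. Hexa was highest in macrophage-like cells at 412 CPM and Gusb at 88.4 CPM, both of which remove end sugars. Cemip2, a transmembrane relative of Cemip, was highest in lymphatic endothelial-like cells at 368 CPM. Stab1 was highest in lymphatic endothelial-like cells too, at 552 CPM. Hyal3 was highest in keratinocyte-like cells (10.3 CPM), Itih5 in Schwann-like cells (177 CPM) and Itih2, another heavy chain, also in Schwann-like cells (15.8 CPM). Tlr4 was highest in mast-like cells, from 3 UMIs (17.5 CPM).

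In endothelial-like against macrophage-like cells, 18 of the 36 other genes were tested, with 1 called higher (Itih5, log2 ratio 5.91) and 3 lower (Hexa -2.31, Tlr2 -2.76 and Gfpt1 -2.31). Over all genes tested in this comparison, 12.1% were called higher and 5.98% lower. Apart from Itih5 and the Has2 UMIs described above, no synthase, binder or precursor gene of the list was called higher in endothelium.

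**Figure D5:**
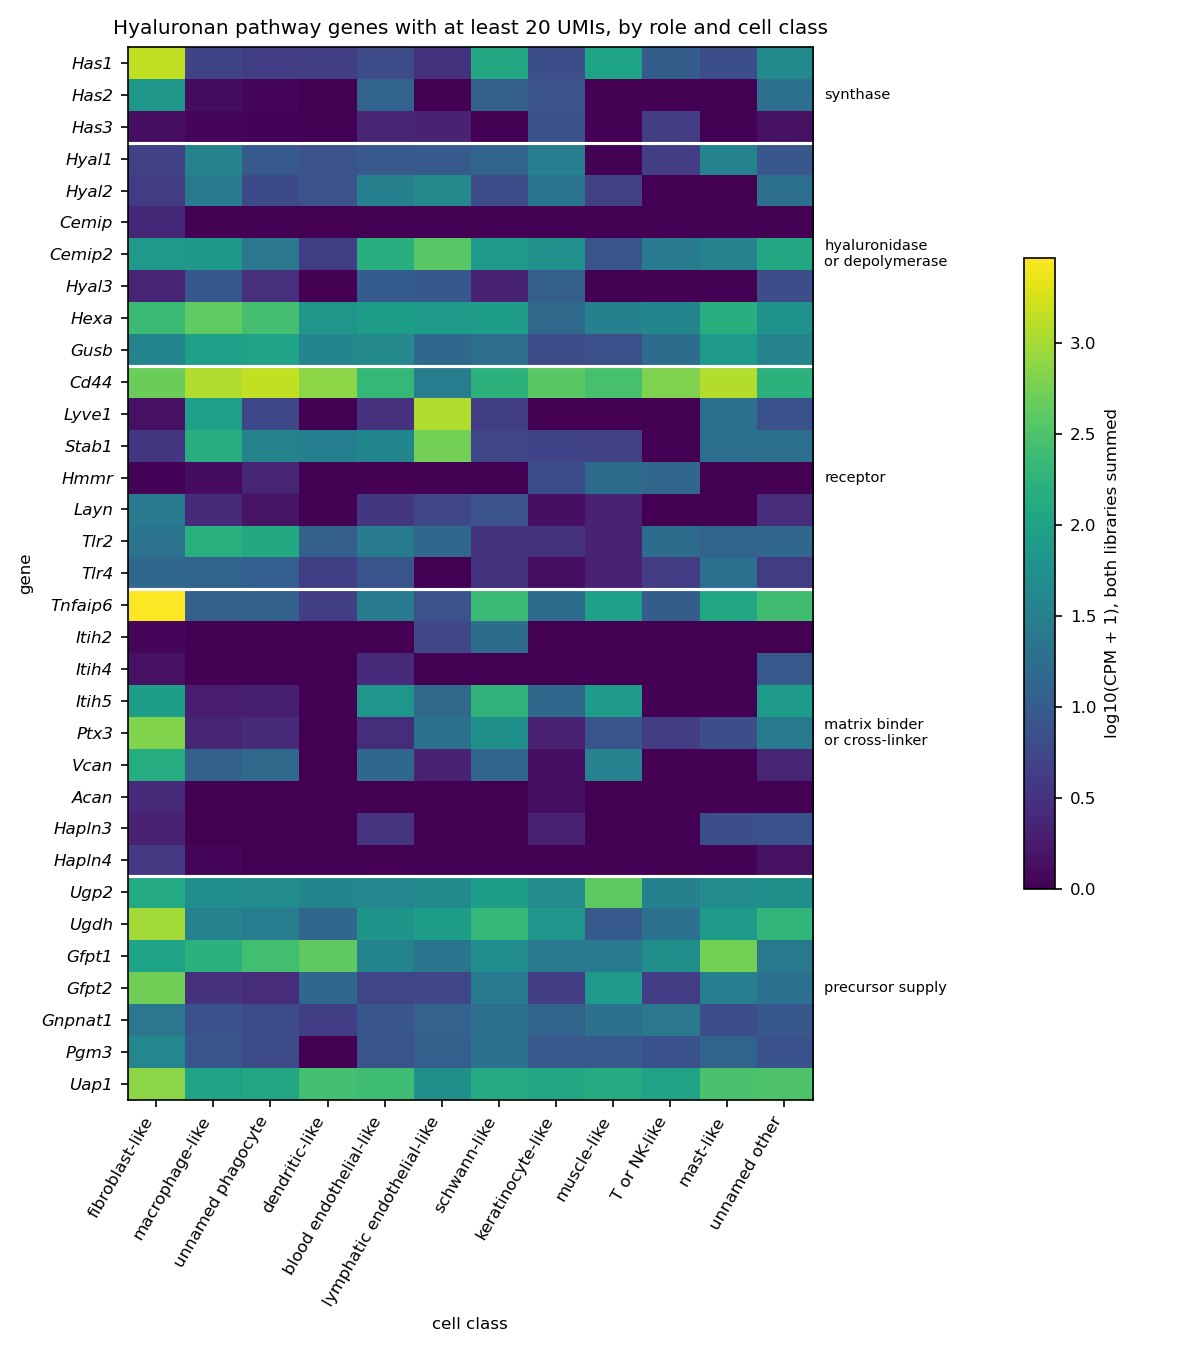
Heat map of log levels (CPM) of 33 of the 45 hyaluronan genes of the list, those with at least 20 UMIs, by cell class and ordered by role. The fibroblast-like column is high for Has1, Has2, Tnfaip6, Ptx3, Ugdh, Uap1 and Gfpt2, and the macrophage-like column for Cd44, Hexa and Tlr2.

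Genes whose levels over the 27 clusters were most like each member were found by Pearson correlation of log2(CPM + 1) among 12133 genes with at least 100 UMIs. The clusters share 2 libraries and differ in depth, so the values are descriptions. For Has1 they were Scara3 (0.96), Loxl1 (0.96) and Mrc2 (0.95), and for Tnfaip6 Col6a1 (0.97), Scara3 (0.96) and Pdgfra (0.96). Loxl1 and Pdgfra were among the fibroblast markers. For Has2 they were Cd248 (0.92), Gm42679 (0.91) and Dact1 (0.91). For Lyve1 they were Stab1 (0.82), Myo7a (0.81) and Ccl24 (0.78), and for Hyal1 Ncoa4 (0.85), Npl (0.82) and Tpp1 (0.81). For Hyal2 they were Smagp (0.87), Cracr2b (0.84) and Sh3bgrl2 (0.82), and for Cd44 Gmip, Edem1 and Tnpo3, all at 0.90. Among the members, the closest were Has1 and Tnfaip6 (0.94), Has2 and Tnfaip6 (0.81) and Has1 and Has2 (0.76), followed by Hyal1 and Lyve1 (0.64).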

How the data were processed

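The authors deposited whole-number UMI counts per gene and barcode for both libraries in 1 matrix, made with Cell Ranger 4.0.0 on mm10 per the submitters' processing notes, without normalization. The strand setting is not given in the sources used. Members and gene lists were chosen with earlier results of these data known. Work was done in Python (version 3.11.15) using numpy (2.4.6), scipy (1.17.1) and scanpy (1.11.5). Kept cells were scaled to 10000 UMIs and logged. Leiden clusters (resolution 1, seed 1, igraph 0.11.9, leidenalg 0.10.2) came from 15 neighbours in 30 principal components of 2000 variable genes, which left out the 46 hyaluronan genes of the list, 1 of which is not reported here. Clusters were named from 18 marker lists. At least 3 markers of the leading list had to reach 20 CPM and 2 times the lower-quartile cluster. That list also had to lead the next by 1 on the log2 scale with a pseudocount of 10 CPM. A cluster stayed unnamed where its 10 leading genes held more markers of another list than of the leading list. The Cfd cluster stayed unnamed in this way, with a macrophage score of 5.21, a monocyte score of 3.26 and 10 of 10 macrophage markers raised. The rule followed a look at the clusters, which also led to dropping a list of erythroid genes, so the names are rebuilt.

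UMIs were summed per class, with exact Poisson intervals for levels, exact conditional binomial intervals for ratios and Clopper-Pearson intervals for shares, all at 95% and for counting error only. Genes needed 20 UMIs in both classes together. A count of 0 was given a limit of 3 counts. The steps were checked on simulated counts. No doublet caller was run, and cells that carried at least 50% of the markers of 2 lists were kept in the main values and removed in an alternative. Genes beside the members were named by a fixed rule. It took the 4 with the highest level in any named class for each role and the 3 most like each member. Pgm3 and the values of Ptx3, Vcan and Stab1 by cluster were chosen after they were seen. Upstream sequences were found in the RefSeq table used here for 6 of 9 members and not for Has2, Has3 and Lyve1, and exon bases were cut off their ends.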

Additional observations from a re-analysis of the deposited data

Results flagged for a closer look

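The 1460 barcodes that the filter on cells removed held 5403713 UMIs, and 7 of the 9 members exceeded in them the limit that a count of 0 allows (0.555 CPM). Has1 was at 42.7 CPM there against 382 CPM in kept cells, Has2 at 5.92 against 20.4 CPM, Tnfaip6 at 125 against 807 CPM, Cd44 at 337 against 838 CPM and Lyve1 at 13.3 against 40.0 CPM. Hyal1 at 15.9 against 13.4 CPM and Hyal2 at 12.4 against 12.7 CPM were near their levels in kept cells. Has3 had 2 UMIs and Cemip none. The cell types of these barcodes were not determined.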

How the results depend on the processing

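The alternatives changed the filter on cells, the clustering, the classes, doublets, the libraries, the weights of cells, the scaling and the filter on genes, and 4 ways to change the classes were chosen after seeing the data. Of 221 log2 ratios of members under them, 204 kept their direction and side of 4-fold. In fibroblast-like over macrophage-like cells, ratios ran from 7.73 to 9.12 for Has1, 7.48 to 9.52 for Has2, 7.85 to 8.24 for Tnfaip6, -3.64 to -2.36 for Hyal1 and -8.15 to -6.36 for Lyve1, each called under all of them. Hyal2 was no longer called under a stricter filter on cells (-2.38) and against all phagocyte clusters (-2.10), and Cemip passed in library 1 alone (2.90). In endothelial-like over macrophage-like cells, Cd44 ran from -6.16 to -2.32 and was called throughout. Lyve1 passed under the stricter filter (5.33, with 18 endothelial-like cells) and against all phagocytes (2.54), Hyal1 in library 2 alone (-2.49), and Tnfaip6 under a looser filter (2.46) and resolution 0.5 (2.60). Tnfaip6 reversed under the stricter filter (-0.21) and without cells carrying 2 lists (-0.17). Has1 reversed under the stricter filter (-1.03), 3000 variable genes (-0.18), cells classed by their own markers (-0.93), cells carrying 2 lists removed (-0.94), library 2 alone (-1.67), equal weights of libraries (-0.49) and centring on the median gene (-0.11). Has2 gave a ratio in 11 of 14 alternatives (3.51 to 5.61) and none without cells carrying 2 lists. The cause of these changes was not tested.

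Genes called in endothelial-like cells numbered 771 higher (1425 in the main values) and 455 lower (703) under the stricter filter and 875 higher with at least 100 UMIs. Between libraries, 110 were higher in macrophage-like (173) and 108 lower in endothelial-like cells (455) under the stricter filter, 226 lower in endothelial-like cells classed by their own markers and 230 without cells carrying 2 lists, and 1892 lower in fibroblast-like cells (1197) without the Col1a1 cluster. Shares of cells with a UMI rise with depth by construction. At 1000 UMIs, 4000 UMIs and without thinning they were 46.3%, 63.2% and 69.6% for Has1, 7.50%, 22.0% and 35.6% for Has2 and 65.9%, 82.5% and 85.7% for Tnfaip6 in fibroblast-like cells. They were 59.4%, 91.7% and 93.3% for Cd44 and 8.72%, 18.4% and 25.3% for Lyve1 in macrophage-like cells, and in lymphatic endothelial-like cells Lyve1 was at 55.8% at 4000 UMIs and 55.4% without thinning. The comparison of ages was not run. No paired analysis was possible because each age has 1 library, no label ties a library to an age and no result comes from a test.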
